A study of Homo sapiens with 4 samples.

Results

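The 10 genes described here are detoxification and redox genes of the kind driven by the transcription factor NRF2, followed across a CRISPR experiment in a small cell lung cancer line. They are AKR1B10, AKR1C1, AKR1C2, AKR1C3, NQO1, GCLM, TXNRD1, HMOX1, UGT1A6 and UGT1A7, taken by gene symbol from 35979 symbols in the tables. UGT1A7 was chosen by its higher count in the knockout libraries, and the other members were taken with earlier results of these data in view. Ratios to the non-targeting gRNA library are therefore given as a description, with no test. All 10 members passed the expression minimum, a mean normalized count of at least 20 over the 4 libraries, as did 14940 symbols in all. UGT1A6 and UGT1A7, listed at 0 in the control, passed it only through the knockout libraries.

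NRF2 (encoded by NFE2L2) is held at a low level by KEAP1, which feeds it to degradation. Electrophiles and oxidants release it, and with a small MAF partner it binds antioxidant response elements and raises genes for glutathione synthesis, thioredoxin recycling, quinone reduction and conjugation. BACH1 competes for the same elements and is removed by haem, which is how HMOX1 is best known to be controlled. UGT1A genes encode enzymes that attach glucuronic acid to drugs, bilirubin and phenols, and in liver and gut several of them answer to NRF2 and to the aryl hydrocarbon receptor (AHR). Many lung cancers with KEAP1 or NFE2L2 mutations express AKR1B10 and AKR1C genes strongly.

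NCI-H1048 is an established small cell lung cancer line of the tuft cell-like kind, which depends on the transcription factor POU2F3. COLCA2 is a co-activator of POU2F3. Poly(A) RNA was sequenced from 4 libraries. Cells labelled COLCA2 knockout gave 2 libraries, each with a different gRNA, and cells labelled POU2F3 knockout gave 1. The remaining library, called the control from here on, came from cells labelled WT with a non-targeting gRNA. COLCA2 gRNA 1 and 2 are called guides 1 and 2. The labels list no drug treatment and do not say whether a library came from a clone or a pool, or how the guides and the nuclease were delivered. Nothing says that the COLCA2 libraries were replicate cultures beyond their different guides. The 2 COLCA2 libraries give the only spread within a group, and all ratios to the control share 1 library.

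Between 21587741 and 29632382 reads per library were assigned to genes. The POU2F3 gene itself went from 14602 normalized counts in the control to 1449 under its own gRNA, and to 3677 and 2351 under guides 1 and 2. COLCA2 had 5585 in the control, 3119 and 3541 under its own guides and 1393 under POU2F3 gRNA. C11orf53, the sister co-activator, had 1853 in the control and 554, 499 and 195 under guide 1, guide 2 and POU2F3 gRNA. A guide can disrupt a protein and leave its transcript, so these levels check the labels only in part. Of the 12 tuft markers, 8 passed the minimum in these cells and TRPM5 had under 3 normalized counts in each library.

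Several of these genes are hard to tell apart by sequence, and that limits their counts. The AKR1C genes lie together on chromosome 10, AKR1C1 at 4963253 to 4983283, AKR1C2 at 4987400 to 5018031 and AKR1C3 at 5035354 to 5107686 in GRCh38 (GENCODE release 29). The coding sequences of AKR1C1 and AKR1C2 are each 969 bases long without the stop codon and differ at 19 positions, an identity of 98.0%, with identical runs of up to 186 bases. AKR1C3 is 91.4% identical to AKR1C1. The first 90 coding bases are shown to make this visible, with capitals where a gene differs from AKR1C1.
AKR1C1: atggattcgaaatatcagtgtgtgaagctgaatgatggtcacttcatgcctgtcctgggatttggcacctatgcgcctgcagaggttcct
AKR1C2: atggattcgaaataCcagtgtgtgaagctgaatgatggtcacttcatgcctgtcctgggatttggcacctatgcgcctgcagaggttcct
AKR1C3: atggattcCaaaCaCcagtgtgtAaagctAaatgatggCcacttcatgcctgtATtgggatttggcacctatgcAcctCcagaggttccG
In this window AKR1C3 differs from AKR1C1 at 11 bases and AKR1C2 at 1. A read from within it tells AKR1C1 from AKR1C2 only if it covers that 1 base.

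The UGT1A genes pose another problem. UGT1A6 (chromosome 2, 233691607 to 233773300) and UGT1A7 (233681938 to 233773299) each have a first exon of their own and then join the same exons 2 to 5, which they share with UGT1A1. The shared exons hold 735 coding bases, 46.1% of the UGT1A6 and 46.2% of the UGT1A7 coding sequence. The first coding exons of UGT1A6 and UGT1A7 are only 56.2% identical. The 30 bases before and after the first junction show the switch, with the shared exon 2 in capitals.
UGT1A1: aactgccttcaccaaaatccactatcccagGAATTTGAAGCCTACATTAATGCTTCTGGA
UGT1A6: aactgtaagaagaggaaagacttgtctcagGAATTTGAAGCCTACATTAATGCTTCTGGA
UGT1A7: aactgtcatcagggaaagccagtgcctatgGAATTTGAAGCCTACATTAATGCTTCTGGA
A read that starts in the capitals fits every one of these genes, and only a read that reaches the lower-case part names 1 of them. For this reason sums over the UGT1A genes and over AKR1C1 to AKR1C3 are given beside the single genes.

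All 10 members had a higher normalized count in each of the COLCA2 and POU2F3 gRNA libraries than in the control. At least 2-fold higher with both COLCA2 guides were 9 of the 10, all but GCLM, in a comparison where 5.79% of all genes past the minimum were called. With POU2F3 gRNA 8 of the 10 were at least 2-fold higher, all but AKR1B10 and GCLM, where 6.73% of all genes were called. The 8 that passed in all 3 libraries stand beside a background of 4.89%. No member was 2-fold lower in any library, and of all genes 1.5% were lower in all 3. Because the choice of members used this contrast, nothing is read from these shares. The median log2 ratio of the members was 2.03 for the mean of the COLCA2 guides and 1.57 with POU2F3 gRNA, against -0.0086 and -0.0037 over all genes past the minimum. Log2 ratios were taken on normalized count + 1, which understates the change of low genes.

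**Figure D1:**
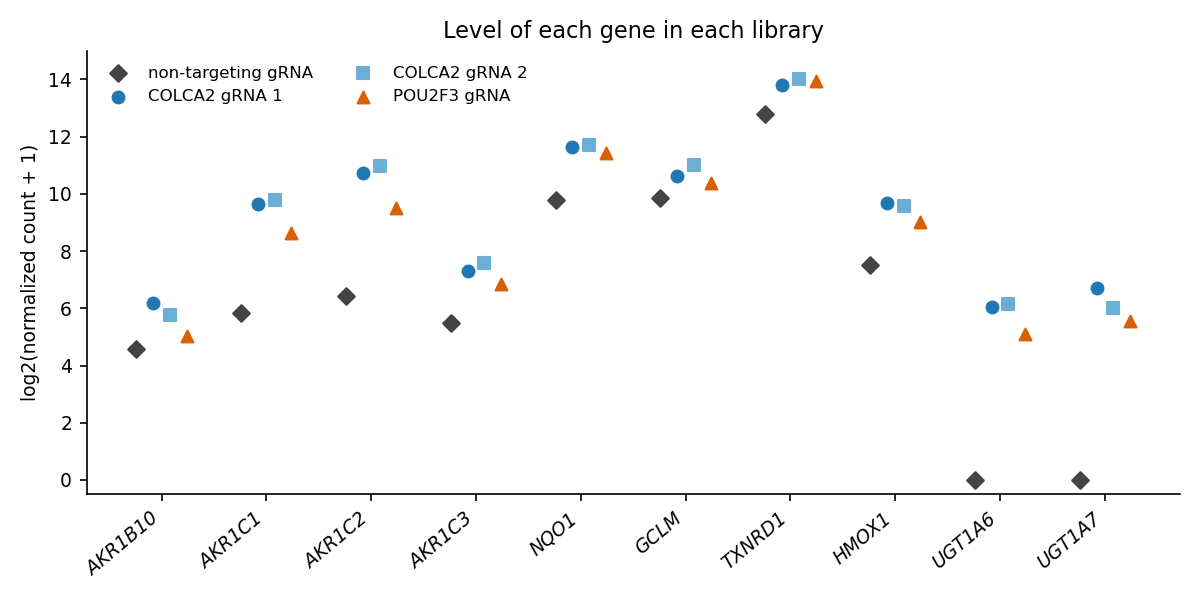
Log2(normalized count + 1) of the 10 genes (x axis) in the 4 libraries, 1 point per library. For each gene the control (diamonds) is the lowest point, and UGT1A6 and UGT1A7 are listed at 0 there. Heights are not adjusted for gene length and do not rank the genes.

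The aldo-keto reductases reduce aldehydes, ketones and quinones, and AKR1C enzymes also reduce steroids and prostaglandins. For AKR1C2 the control held 85.9 normalized counts, guide 1 held 1714, guide 2 held 2027.5 and POU2F3 gRNA held 718. The COLCA2 libraries were the highest, the POU2F3 gRNA library lay between, and the control was the lowest. The mean log2 ratio of AKR1C2 was 4.42 ± 0.17 (SD, n = 2) with COLCA2 gRNA and 3.05 with POU2F3 gRNA. In fold terms AKR1C2 was 8.36-fold higher with POU2F3 gRNA, and its 95% exact interval, which like all such intervals here reflects counting error alone, ran from 6.72 to 10.5.

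AKR1C1, which inactivates progesterone, had 56.3 in the control, 791 and 880 with guides 1 and 2, and 395 with POU2F3 gRNA. Its order of libraries was that of AKR1C2. The mean log2 ratio of AKR1C1 was 3.86 ± 0.11 (SD, n = 2) with COLCA2 gRNA and 2.79 with POU2F3 gRNA. AKR1C3, which makes active androgens and prostaglandin F, had 43.9 in the control, 158 and 191 with the COLCA2 guides and 115 with POU2F3 gRNA. That gave log2 ratios of 1.96 ± 0.19 (SD, n = 2) and 1.37.

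The sum of AKR1C1 to AKR1C3 does not depend on how shared reads were divided among them. It was 186 in the control, 2662 and 3098 with guides 1 and 2, and 1229 with POU2F3 gRNA. These are log2 ratios of 3.83, 4.05 and 2.72, and the fold of guide 1 over the control was 14.3 with a counting interval of 12.4 to 16.6. All 3 libraries thus stood well clear of the control for the sum as for the single genes. A further gene of the cluster, AKR1C4, was listed at 0 in every library.

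AKR1B10, a retinal and aldehyde reductase on chromosome 7 (134527592 to 134541408), was a low gene here. Normalized counts of AKR1B10 came to 22.9 in the control, 72.6 and 52.9 with guides 1 and 2, and 31.9 with POU2F3 gRNA. These rest on 24, 70, 45 and 38 reads. The log2 ratio of AKR1B10 was 1.40 ± 0.32 (SD, n = 2) with COLCA2 gRNA and 0.46 with POU2F3 gRNA. The fold with POU2F3 gRNA had a counting interval of 0.813 to 2.43, so at this depth AKR1B10 could not be told apart between that library and the control. Its paralogs lay nearer to the control and were named after their values were seen. AKR1B15, whose coding sequence is 85.9% identical, had log2 ratios of 0.19, -0.12 and 0.23 with guide 1, guide 2 and POU2F3 gRNA. For AKR1B1 they were -0.27, -0.60 and -0.06.

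NQO1, the quinone reductase that is the standard readout of NRF2 activity, lies on chromosome 16 at 69706996 to 69726951. Normalized counts of NQO1 came to 889 in the control, 3201 and 3327 with guides 1 and 2, and 2734 with POU2F3 gRNA. The 3 libraries labelled knockout lay close together and far from the control. The log2 ratio was 1.88 ± 0.039 (SD, n = 2) for the COLCA2 guides and 1.62 for POU2F3 gRNA. An antisense gene, AC092115.2, overlaps NQO1, and the library kit named in the labels does not mark strand, so reads of that overlap cannot be told apart. The same holds for TXNRD1 with AC089983.1, for AKR1C2 with AL391427.1 and for the UGT1A genes.

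TXNRD1 encodes the cytosolic thioredoxin reductase, which keeps thioredoxin reduced, and lies on chromosome 12 at 104215779 to 104350305. It had 7040 normalized counts in the control, 14191 and 16669 with guides 1 and 2, and 15611 with POU2F3 gRNA. Here the POU2F3 gRNA library lay between the COLCA2 libraries. Log2 ratios were 1.13 ± 0.16 (SD, n = 2) and 1.15.

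GCLM, the modifier subunit of the enzyme that limits glutathione synthesis, had the smallest COLCA2 ratio of the members. It lies on chromosome 1 at 93885205 to 93909456. GCLM had 930 normalized counts in the control, 1589 and 2043 with guides 1 and 2, and 1332 with POU2F3 gRNA. The log2 ratios were 0.77 and 1.13 with the guides and 0.52 with POU2F3 gRNA, so only guide 2 passed 2-fold. Its partner GCLC, the catalytic subunit, had 1504 in the control and 1394, 1699 and 1376 with guide 1, guide 2 and POU2F3 gRNA. For GCLC, which was named after its values were seen, the control lay inside the range of the other libraries.

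HMOX1, which breaks haem down to iron, carbon monoxide and biliverdin, lies on chromosome 22 at 35380361 to 35394214. The control had 181 normalized counts of HMOX1, the COLCA2 libraries 814 and 756, and the POU2F3 gRNA library 520. The log2 ratio was 2.11 ± 0.075 (SD, n = 2) with COLCA2 gRNA and 1.51 with POU2F3 gRNA.

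**Figure D2:**
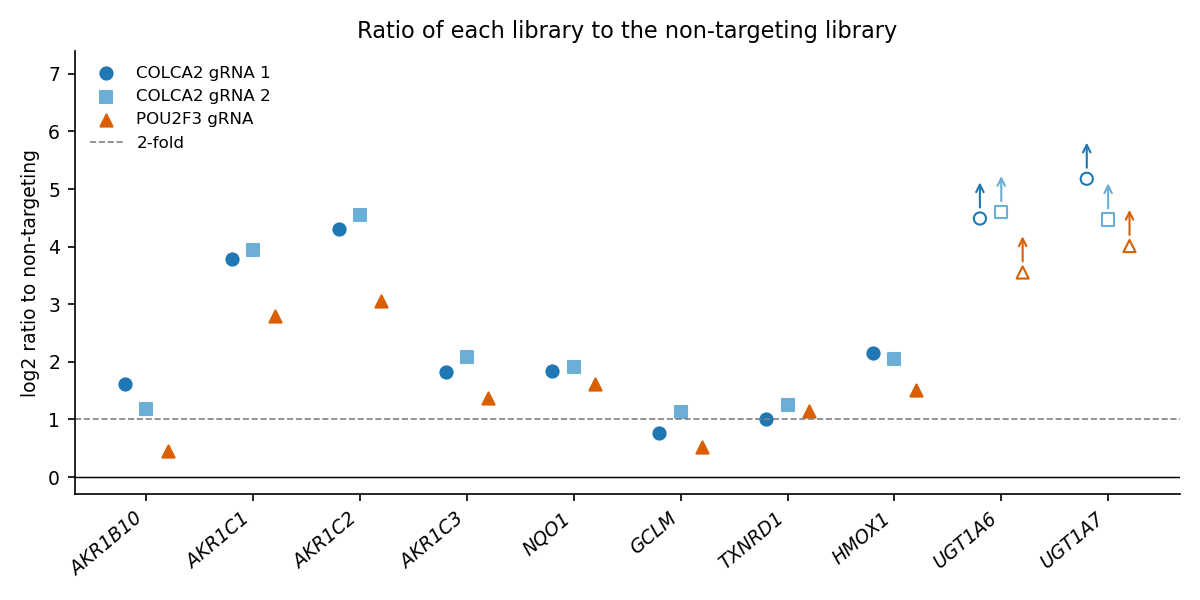
Log2 ratio of each library to the control for the 10 genes, with a dashed line at 2-fold. Filled points use normalized count + 1. Open points with arrows are bounds for UGT1A6 and UGT1A7, computed against a floor of 3 reads in the control, and are not interval limits. AKR1B10 and GCLM lie under the line with POU2F3 gRNA, and GCLM also with guide 1.

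UGT1A6, which conjugates simple phenols, was listed at 0 in the control and had 64.3 and 69.4 with guides 1 and 2 and 33.6 with POU2F3 gRNA. Its bounds against a floor of 3 reads in the control were 22.4-fold, 24.2-fold and 11.7-fold. These are not interval limits, since the lower limits of its counting intervals were 17.7, 19.1 and 9.10. UGT1A7, which conjugates carcinogen metabolites in the upper airway and gut, was also listed at 0 in the control and had 104, 63.5 and 46.2. The bounds of UGT1A7 were 36.2-fold, 22.2-fold and 16.1-fold, and its lower interval limits 28.9, 17.4 and 12.7. UGT1A7 was chosen by this contrast, so these values describe it and test nothing. UGT1A1, the bilirubin enzyme, was the one UGT1A gene with reads in the control, where it had 29.6, against 37.3 under guide 1 and 21.0 under POU2F3 gRNA. Its log2 ratios of 0.32, -0.54 and -0.48 with guide 1, guide 2 and POU2F3 gRNA lay on both sides of 0, on 17 to 36 reads per library.

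Summed over the 9 UGT1A genes, the normalized count was 29.6 in the control, 210 and 178 with guides 1 and 2, and 110.0 with POU2F3 gRNA. The sum rested on 31, 203, 151 and 131 reads. Guide 1 was 7.11-fold above the control (counting interval 4.86 to 10.7) and POU2F3 gRNA 3.71-fold (2.50 to 5.69). Averaged over both guides the log2 ratio of the sum came to 2.67 ± 0.17 (SD, n = 2). The sum differs much less from the control than the bounds of UGT1A6 and UGT1A7 alone, since it holds the UGT1A1 reads. How the 31 control reads were divided between UGT1A1 and its neighbours was not tested. UGT1A4 and UGT1A8 were listed at 0 in every library. UGT1A3, UGT1A5, UGT1A9 and UGT1A10 had between 0 and 16.5 normalized counts. Of the other UGT genes outside the UGT1A locus only UGT8, which makes galactolipids, passed the minimum, with -0.17 ± 0.071 (SD, n = 2) and -0.03 as log2 ratios.

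**Figure D3:**
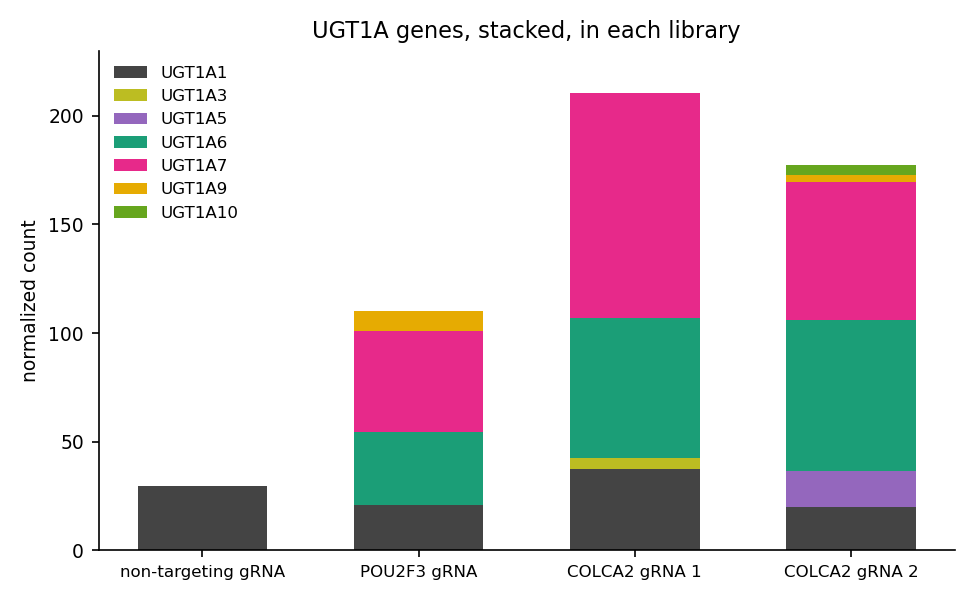
Normalized count of the UGT1A genes, stacked, in each library. The bars reach 29.6 in the control, 110.0 with POU2F3 gRNA, and 210 and 178 with guides 1 and 2. The control bar is UGT1A1 alone, and UGT1A6 and UGT1A7 make most of the other bars.

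Comparing POU2F3 gRNA with the COLCA2 guides leaves the control out. In 9 of the 10 members the POU2F3 gRNA library was lower than both COLCA2 libraries, the exception being TXNRD1. The same held for 38.9% of all genes past the minimum. Of the 118 expressed genes in the wider pathway lists described below, 72 also lay below both guides and 21 above both. Members and lists were chosen with earlier results of these data known. Nothing is therefore read from the shares or medians in this paragraph. Among the members only AKR1C2 was at least 2-fold lower than with both guides, in a comparison where 0.924% of all genes were. Its POU2F3 gRNA level was 0.386 of the pooled COLCA2 libraries, with a counting interval of 0.358 to 0.416. For AKR1C1 the log2 ratios to guides 1 and 2 were -0.999 and -1.15, the first just short of 2-fold, and for UGT1A6 they were -0.92 and -1.03. AKR1C3 had -0.45 and -0.72. The AKR1C1 to AKR1C3 sum had -1.11 and -1.33, past 2-fold against both guides, so the difference is not given as particular to AKR1C2. The UGT1A sum had -0.93 and -0.69. With guide 1 left out, 3 members (AKR1C1, AKR1C2 and UGT1A6) were at least 2-fold lower, and with guide 2 left out, 3 (AKR1B10, AKR1C2 and UGT1A7). The share of all genes against a single guide is not given, so nothing is read from these counts. By edgeR's quasi-likelihood test on reads recovered from the normalized counts (Benjamini-Hochberg adjusted p under 0.05) AKR1C2 was the 1 member called lower with POU2F3 than with COLCA2 gRNA, where 0.234% of all genes were lower and 0.107% higher, and that comparison sets 1 library against 2. In no member did POU2F3 gRNA exceed both guides by 2-fold, as 0.442% of all genes did. NQO1 differed by less, with -0.23 and -0.28, although the guides themselves were only 0.055 apart on the log2 scale. In AKR1B10, GCLM and UGT1A7 the guides differed by 0.45, 0.36 and 0.70 on the log2 scale, so their distance from POU2F3 gRNA depends on the guide. No member was 2-fold apart between the guides, where 2.22% of all genes were. The median difference of the members was -0.70, and that of all genes -0.0039.

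**Figure D4:**
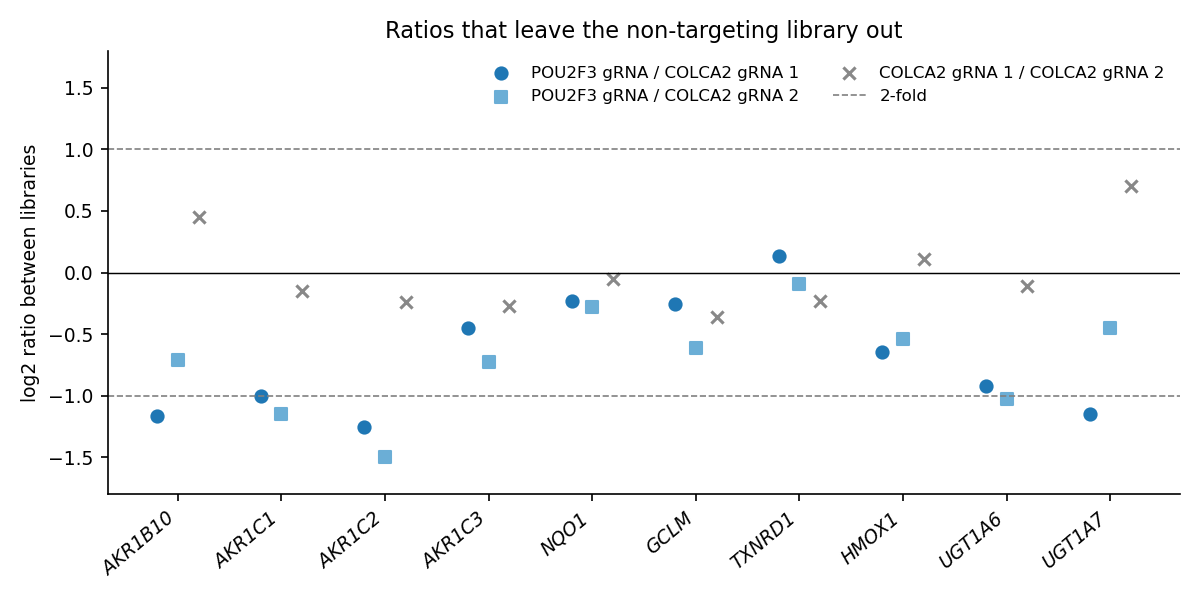
Log2 ratio of the POU2F3 gRNA library to each COLCA2 library (circles and squares) and of guide 1 to guide 2 (crosses), with dashed lines at 2-fold. AKR1C2 is the one gene with both ratios under the lower line, and TXNRD1 lies near 0.

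The wider pathway was followed in 154 further genes, of which 118 passed the minimum. These lists were chosen with earlier results of these data known, so nothing is read from their shares. At least 2-fold higher with both COLCA2 guides were 18 of the 118, where 5.79% of all genes were. With POU2F3 gRNA 15 were, the same 15 as in all 3 libraries, where 6.73% and 4.89% of all genes were. No wider gene was at least 2-fold lower with both COLCA2 guides, where 2.02% of all genes were. With guide 2 left out 1 was (CHAC1), and with guide 1 left out 2 were (PIR and ABCC2). The share of all genes for a single guide is not given. With POU2F3 gRNA 2 wider genes were at least 2-fold lower, where 3.05% of all genes were. Above 0 in all 3 libraries were 57 of the 118 (48.3%), against 34.4% of all genes, and below 0 were 23 (19.5%), against 35.3%. Their median log2 ratios were 0.20 under the COLCA2 guides and 0.051 under POU2F3 gRNA, and those of all genes -0.0086 and -0.0037. The same edgeR test, set against the control, called 32 of the 118 higher and 4 lower for COLCA2, where it called 11.4% of all genes higher and 7.51% lower. For POU2F3 it called 27 higher and 1 lower, where it called 8.45% and 3.98% of all genes. Its spread comes from the 2 COLCA2 libraries alone, so it compares these libraries and not the conditions. The genes past 2-fold fell into a few roles.

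Among 14 regulators, MAFF and SQSTM1 were at least 2-fold higher with both COLCA2 guides, where 5.79% of all genes were. MAFF, a small MAF protein, had 476 in the control, 1122 and 1340 with the COLCA2 guides and 1114 with POU2F3 gRNA. SQSTM1 (p62), which draws KEAP1 into autophagy, had a log2 ratio of 1.03 ± 0.015 (SD, n = 2) with COLCA2 gRNA and 0.82 with POU2F3 gRNA. NFE2L2 itself had 3065 in the control and 4309, 4400 and 4825 in the others, a difference under 2-fold. KEAP1 had log2 ratios of 0.03, -0.16 and -0.16 with guide 1, guide 2 and POU2F3 gRNA, and BACH1 had 0.21, 0.49 and 0.33.

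Glutathione synthesis and use (13), glutathione S-transferases (11), thioredoxin and peroxiredoxin (15) and NADPH supply (8) gave 47 expressed genes. None of the 47 was 2-fold apart in all 3 libraries, where 4.89% of all genes were higher and 1.5% lower. SRXN1, which repairs oxidized peroxiredoxins, had log2 ratios of 0.87 ± 0.019 (SD, n = 2) with COLCA2 gRNA and 0.50 with POU2F3 gRNA, and GPX1 had 0.86 ± 0.039 (SD, n = 2) and 0.52. The cystine transporter SLC7A11, named after its values were seen, had log2 ratios of -0.09, 0.11 and -0.47 with guide 1, guide 2 and POU2F3 gRNA. CHAC1, which degrades glutathione, had -0.99 ± 0.31 (SD, n = 2) with COLCA2 gRNA and -0.90 with POU2F3 gRNA. The transferase list was led by GSTM3, with 0.55 ± 0.087 (SD, n = 2) and 0.43, followed by GSTK1 and MGST3, at 0.47 and 0.44 with COLCA2 gRNA. Of the peroxide genes SESN3 had 0.47 ± 0.19 (SD, n = 2) and 0.94, and PRDX1 had 0.47 ± 0.054 (SD, n = 2) and 0.19. TKT, the transketolase, had 0.71 ± 0.025 (SD, n = 2) and 0.57, while IDH1 lay lower than the control in all 3, with -0.30 ± 0.015 (SD, n = 2) and -0.36.

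Oxidation and reduction of carbonyls gave 4 of 17 genes at least 2-fold higher in all 3 libraries, where 4.89% of all genes were. ALDH3A1, an aldehyde dehydrogenase of airway and cornea, had 30.6 in the control, 603 and 759 with guides 1 and 2, and 368 with POU2F3 gRNA. Its log2 ratio of 4.42 ± 0.23 (SD, n = 2) with COLCA2 gRNA was as large as that of AKR1C2. ALDH1A3, which makes retinoic acid, had 2.29 ± 0.14 (SD, n = 2) and 2.12, and the epoxide hydrolase EPHX1 had 1.33 ± 0.034 (SD, n = 2) and 1.25. ALDH3B1, named after its values were seen, had 1.39 ± 0.027 (SD, n = 2) and 1.19. In the opposite direction PIR (pirin), likewise named afterwards, had 2024 in the control, 1013 and 854 with the COLCA2 guides and 758 with POU2F3 gRNA. The other gene at least 2-fold lower with POU2F3 gRNA was the nuclear receptor NR1I3, named for the same reason, with 53.5 in the control and 25.2. The COLCA2 libraries lay on both sides of the control for NR1I3, at 67.4 with guide 1 and 37.6 with guide 2. It was a low gene, on 30 to 65 reads per library.

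Of 10 haem and iron genes, 3 were at least 2-fold higher in all 3 libraries, beside the same 4.89% of all genes. The ferritin chains FTL and FTH1, which store iron, had log2 ratios of 1.52 ± 0.020 and 1.47 ± 0.014 (SD, n = 2) under the COLCA2 guides, against 1.27 and 1.26 under POU2F3 gRNA. SLC48A1, a haem transporter, had 1.27 ± 0.018 (SD, n = 2) and 1.08. Together with HMOX1 these genes handle haem and its iron.

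Of 7 expressed efflux transporters, ABCC3, which exports glucuronides, was at least 2-fold higher in all 3 libraries, where 4.89% of all genes were. It had 85.9 in the control, 709 and 734 with the COLCA2 guides and 379 with POU2F3 gRNA. ABCC2, another exporter of glucuronides, lay the other way, with 93.6 in the control and 46.7, 37.6 and 47.0. ABCC1 stayed within 0.36 on the log2 scale. Among 9 other NRF2 targets, TRIM16 had 1.88 ± 0.082 (SD, n = 2) and 1.53, and CYP4F11 had 1.84 ± 0.29 (SD, n = 2) and 1.49. TRIM16L passed 2-fold with both COLCA2 guides but had 0.79 with POU2F3 gRNA.

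In the list of 12 expressed genes of the aryl hydrocarbon receptor and other xenobiotic receptors, 5 were at least 2-fold higher under both COLCA2 guides (5.79% of all genes) and 4 under POU2F3 gRNA (6.73%). AHR had 427 in the control, 1013 and 1321 with the COLCA2 guides and 1172 with POU2F3 gRNA. The cytochrome CYP1A1, the standard readout of AHR activity, had 120 in the control, 645 and 643 with the COLCA2 guides and 452 with POU2F3 gRNA. CYP1B1 had log2 ratios of 1.72 ± 0.19 (SD, n = 2) and 1.48. The others of the 5, named after their values were seen, were the repressor AHRR, with 1.01, 2.16 and 2.12 under guide 1, guide 2 and POU2F3 gRNA, and TIPARP, with 1.30 ± 0.078 (SD, n = 2) and 0.57. The AHR target CYP1A2, also named afterwards, had -0.42, 0.23 and 0.05 under guide 1, guide 2 and POU2F3 gRNA. The pregnane X receptor NR1I2 was listed at 0 in all libraries.

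**Figure D5:**
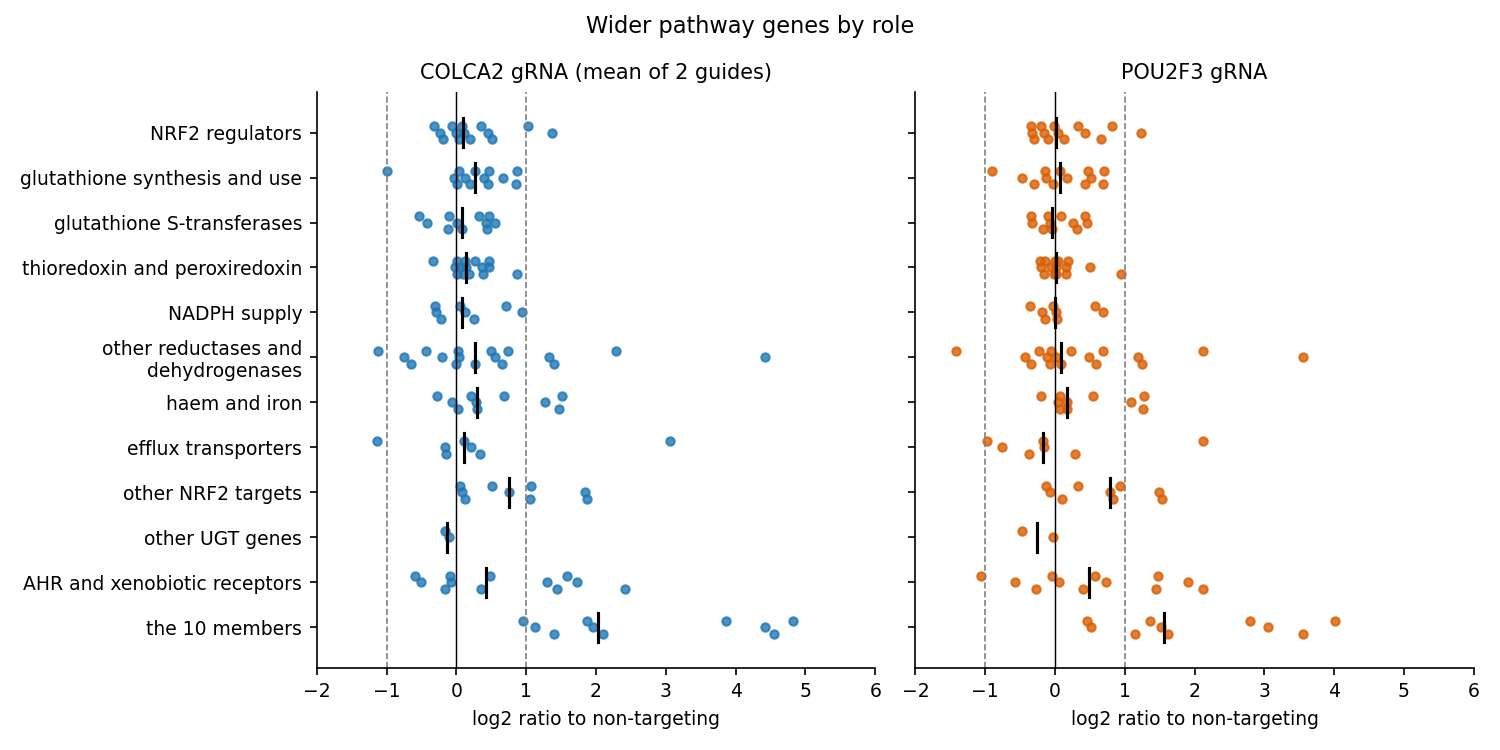
Log2 ratio to the control of the 118 wider genes by role, and of the 10 members, for the mean of the COLCA2 guides (left) and POU2F3 gRNA (right). Each point is a gene, black bars are medians, dashed lines mark 2-fold, and UGT1A6 and UGT1A7 are drawn at their bounds. Most roles centre near 0, with a few genes far to the right.

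Markers of another epithelial type differed in the same libraries. Of the 10 basal and squamous markers, 7 passed the minimum. At least 2-fold higher in all 3 libraries were 5 (TP63, KRT5, KRT6A, KRT13 and KRT14), where 4.89% of all genes were. SOX2 had log2 ratios of 0.13, 0.08 and 1.40 with guide 1, guide 2 and POU2F3 gRNA, and DSG3 had 1.31, 1.48 and 0.39. SPRR1B, under the minimum, had 1.39, 1.72 and -1.33. The summed normalized count of all 10 was 392 in the control, 5371 and 6227 with guides 1 and 2, and 3343 with POU2F3 gRNA. KRT5 made most of the sum under the guides, with 3558 and 4079 against 1024 under POU2F3 gRNA. The order was not shared by the whole list, since KRT13 had 720 and 815 under guides 1 and 2 and 1475 under POU2F3 gRNA. No marker of that list was at 0 in all libraries. The sum of the tuft markers lay the other way, at 47339 in the control and 10435 to 15573 in the others. That sum includes POU2F3 itself, with 14602 in the control. The part of either change in the detoxification genes was not tested.

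The core antioxidant response element was looked for near the members' start sites. The motif TGACNNNGC was searched on both strands in RefSeq windows (GRCh38.p14) of 250 bases before to 50 after each start. Of all 35116 windows 13.3% held it, and of all 27305 symbols with a window 16.1% did. Windows matched 8 members, not AKR1B10 and HMOX1, and 3 of the 8 (GCLM, TXNRD1 and UGT1A6) held it. So did 25 of 96 wider genes, and 3 of the 13 matched wider genes at least 2-fold higher with both COLCA2 guides. Each site is shown 5′ to 3′ on the strand that reads TGAC, with the motif in capitals.
GCLM, chr1:93909446-93909474, plus strand: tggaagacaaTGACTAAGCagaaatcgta
TXNRD1, chr12:104215670-104215698, plus strand: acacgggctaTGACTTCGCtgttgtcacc
TXNRD1, chr12:104215761-104215789, minus strand: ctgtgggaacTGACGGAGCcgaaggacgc
TXNRD1, chr12:104286920-104286948, minus strand: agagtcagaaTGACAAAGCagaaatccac
UGT1A6, chr2:233692782-233692810, plus strand: aggtgaaagcTGACACGGCcatagttggt
None of the 5 holds TGACTCA, the AP-1 motif that can overlap this one. AKR1C1, AKR1C2, AKR1C3, NQO1 and UGT1A7 had no match in these windows. A match is a description of letters and not a measured binding site, and elements farther from the start were not searched.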

How the data were processed

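Normalized counts per gene (a signal on a linear scale) are what the authors deposited, 1 file per library, per the file headers. The submitters' processing notes name Salmon, DESeq2 and hg38, and the annotation is not given in the sources used here. Salmon divides reads that fit several transcripts by estimate, which bears on the AKR1C and UGT1A genes. In every library 100% of values were whole multiples of 1 step (tolerance 0.01 of a read), so reads were recovered by dividing by that step.

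Of 38145 rows, those of 1 symbol were summed to 35979 symbols, and 14940 with a mean of at least 20 were kept. Log2 ratios used a pseudocount of 1. A gene counts as higher or lower from 2-fold on, with no test because 2 of 3 groups are a single library. COLCA2 counts need both guides. Genes at 0 in the control are given as bounds against 3 reads, which are not interval limits. Fold intervals are exact (Clopper-Pearson, 95%). The edgeR test (version 4.0.16, TMM, 3 groups, 1 residual degree of freedom) was checked on simulated data, as were the fold counts. Alternatives changed the pseudocount, scaling, minimum, threshold and row choice, or left out a guide.

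Members and gene lists were chosen with earlier results of these data known. From each wider list the text names up to 3 genes that lay on the same side of the control in all 3 libraries and ranked highest by the smallest of their ratios, with NFE2L2, KEAP1, BACH1, UGT1A1 and genes marked as named afterwards. A few genes that this rule names are not reported here. Summed normalized counts of the remaining marker lists ranged over libraries from 311 to 493 (club, ciliated and alveolar), 31.8 to 84.0 (hepatocyte and enterocyte), 90.6 to 198 (neuroendocrine) and 1245 to 1486 (leukocyte, endothelial and fibroblast). The control held the 311, the 84.0 and the 198. At least 2-fold higher in all 3 libraries was FOXJ1, 1 of 5 expressed club, ciliated and alveolar markers (4.89% of all genes). At least 2-fold lower in all 3 was INSM1, 1 of 2 expressed neuroendocrine markers (1.5%). CD68, 1 of 4 expressed markers of the last list, was higher with both COLCA2 guides (5.79%).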

Additional observations from a re-analysis of the deposited data

How the results depend on the processing

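No paired analysis was possible because no pair of groups has 2 replicate numbers in common. Values given here are those that changed beyond 1.5 times for a count, or beyond 1 SD of the guides for a ratio. Each of the 10 members kept a ratio above 0 to the control under every scaling, pseudocount, row choice and left-out guide that was run, and the scalings moved the median of all genes to -0.078 at most. With a 4-fold threshold 5 members were higher with COLCA2 gRNA (2.32% of all genes), 4 with POU2F3 gRNA (2.44%) and 0 lower with POU2F3 gRNA than with both guides (0.181%). Of the wider genes 4 were then higher with COLCA2 gRNA, 4 higher with POU2F3 gRNA and 0 lower with it (0.756% of all genes). A 1.5-fold threshold gave 28 wider genes higher and 3 lower with COLCA2 gRNA (9.71% and 6.03% of all genes), 27 higher and 5 lower with POU2F3 gRNA (12.2% and 7.69%), 4 members lower with POU2F3 gRNA than with both guides (2.5%), and 1 apart between the guides (7.03%). By edgeR's test, 32 wider genes were higher and 4 lower with COLCA2 gRNA, and 27 higher and 1 lower with POU2F3 gRNA, beside backgrounds of 11.4%, 7.51%, 8.45% and 3.98% of all genes. It called 1 member, AKR1C2, lower with POU2F3 than with COLCA2 gRNA, where 0.234% of all genes were, and no wider gene apart. A count of 0 wider genes lower with COLCA2 gRNA became 1 with a pseudocount of 0.1, 2 with equal totals, 2 with upper-quartile scaling, and 1 to 2 when a guide was left out. The genes are PIR and ABCC2 without gRNA 1 and CHAC1 without gRNA 2. With a pseudocount of 10 or a mean of at least 100, 1 wider gene was lower with POU2F3 gRNA. Members apart between POU2F3 gRNA and both guides were 2 with a pseudocount of 0.1 and 3 with either guide left out, those then apart without gRNA 2 including AKR1B10 and UGT1A7. For left-out guides, other pseudocounts, scalings and minimums no share of all genes is given, so nothing is read from those counts. The members' median with COLCA2 gRNA was 1.96 with a pseudocount of 10, with equal totals and with a mean of at least 100, and with POU2F3 gRNA 1.51 with a mean of at least 100, which leaves out AKR1B10, UGT1A6 and UGT1A7. A pseudocount of 10 gave log2 ratios of 2.36 and 1.60 for the UGT1A sum with COLCA2 and POU2F3 gRNA, since that sum is low. The fitted ratios of UGT1A6 and UGT1A7 rest on the pseudocount, between 2.94 and 9.39 for UGT1A6 with COLCA2 gRNA, and are therefore given as bounds.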

Other observations

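Genes whose 3 log2 ratios to the non-targeting library lay nearest to those of a member were looked up among the 12159 genes whose normalized counts average 100 or more, by Euclidean distance. All ratios share 1 control, so this is a description over 3 values. Nearest to NQO1 were TRIM16, itself a gene of the wider list, at a distance of 0.095, then PXDC1 at 0.11 and LMNA, a nuclear lamin, at 0.15. For LMNA the control held 1286 normalized counts, guides 1 and 2 held 4425 and 4556, and POU2F3 gRNA held 4253. Nearest to UGT1A6, whose ratios rest on the pseudocount, were ANXA8L1 at 0.54, the carboxypeptidase CPA4 at 0.91 and the protease inhibitor SLPI at 1.16. For SLPI the control held 15.3, guides 1 and 2 held 687 and 871, and POU2F3 gRNA held 302. ANXA8L1 has near-identical copies, so its counts are uncertain.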
